A study of Mus musculus with 8 samples.

Results

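The genes described here are the heat shock proteins and J-domain proteins, taken as every row of the deposited gene table whose symbol begins with Hspa, Hspb, Hsph, Hspd, Hspe, Hsp90, Dnaja, Dnajb or Dnajc. The rule found 72 of 16349 genes: 11 HSP70, 3 HSP110, 3 HSP90, 2 mitochondrial chaperonin, 6 small heat shock, 2 HSP-binding, 4 class A, 13 class B and 28 class C J-domain genes. RNA was measured in round spermatids, the early haploid male germ cells, and in elongating spermatids, the stage that follows, in which chromatin is compacted and the tail is built. Both stages came from C57BL/6 mice labelled either WT or cKO, and the title of the series names CARM1, an arginine methyltransferase, as the protein studied. All groups were untreated, and each of the 4 groups has 2 poly A libraries. Every sample pooled 8 testes and was separated by centrifugal elutriation, a sorting by cell size. The promoter that drives Cre, the targeted exons and the age of the mice are not stated in the labels.

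HSP70 proteins hold unfolded stretches of other proteins and release them through cycles of ATP hydrolysis. J-domain proteins bring clients to HSP70 and start its ATP hydrolysis, HSP110 proteins exchange its nucleotide, and HSP90 takes over a narrower set of clients. Small heat shock proteins hold unfolding proteins without ATP. Several of these families have a member that is made mainly in male germ cells, and HSPA2, the germ cell HSP70, is known for its part in meiosis and in the handling of nuclear proteins of the spermatid.

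Recovered reads ranged from 17190962 to 23526694 per library. Levels are given as the authors' normalised read counts, which are whole reads divided by a size factor for the library. Where 4 pairs of values are given with no group beside them, they are replicates 1 and 2 of WT round, KO-labelled round, WT elongating and KO-labelled elongating cells, in that order. The size factors bear on every change of level. With the deposited scaling the median log2 difference over all tested genes between the genotypes was 0.03 in round and -0.07 in elongating spermatids. With reads divided by the library total (total-count scaling) it was -0.06 and -0.61. For elongating against round spermatids the median was 0.01 in both genotypes with the deposited scaling, and -1.42 in WT and -1.87 in KO-labelled cells with total counts. A change is therefore called stable below only where it passed the test in the same direction under all 4 scalings tried: deposited, total-count, library totals without the 50 most abundant genes, and TMM library sizes.

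Carm1 itself stood at 1649 and 1686 (normalised reads) for WT and 1174 and 1343 in KO-labelled round libraries, and at 4308 and 4534 in WT and 8157 and 7993 in KO-labelled elongating libraries. It fell in round cells (log2 fold change -0.41, limma adjusted p = 3.8e-05) and rose in elongating cells (0.87, adjusted p = 2.7e-09; 0.31 with total counts). The elongating libraries thus go against their genotype label by gene total, which cannot show the loss of single exons, and all libraries of this label are called KO-labelled. Of the marker genes, the 6 for elongating spermatids took 1.10 to 1.20% of reads in round libraries, and 8.10 and 8.04% (WT) against 9.77 and 9.68% (KO-labelled) in elongating libraries. All 6 rose in elongating KO-labelled cells (median log2 fold change 0.83; 5 of them with total counts). The 5 markers of round spermatids took 0.123 to 0.128% in round libraries. They took 0.0444 and 0.0431% (WT) against 0.030 and 0.0309% (KO-labelled) in elongating libraries, where 1 rose and 3 fell (median -0.83). Tssk1 gave 9779 and 9501 of their summed 13399 and 13109 normalised reads in WT elongating libraries. It rose between the WT stages (log2 fold change 1.17), where the other 4 fell. With total counts all 5 fell there, Tssk1 by the least (-0.30). The share in elongating libraries is thus mostly Tssk1, while the other 4 fell more than it between the stages. The 10 spermatocyte markers took 0.141 to 0.148% in round libraries. They took 0.0228 and 0.0236% (WT) against 0.017 and 0.0173% (KO-labelled) in elongating libraries, where 2 rose and 7 fell (median -0.39). Ldhal6b gave 4815 and 5014 of their summed 6867 and 7163 normalised reads in WT elongating libraries. In WT round libraries it gave 8652 and 8748 of 15430 and 15646. Ldhal6b rose in round KO-labelled cells (0.32), where 2 of the 10 markers rose and 4 fell (median -0.27; 2 and 5 with total counts). Of all genes 19.4% rose and 12.6% fell there (14.0% and 19.5% with total counts). The 8 spermatogonia markers took 0.0123 to 0.0154% in round libraries, and 0.00316 and 0.00324% (WT) against 0.00165 and 0.00159% (KO-labelled) in elongating libraries. The stage markers thus moved with genotype in elongating cells, and some of them in round cells, as did the chaperones described below. The part of the stage makeup of the samples in those results was not tested. Markers of somatic cells were low but moved with the groups: the 11 Sertoli markers in the table took 0.00506 and 0.00507% (WT) and 0.00299 and 0.00296% (KO-labelled) of the reads of round libraries, and 0.0281 and 0.0280% (WT) and 0.0129 and 0.0130% (KO-labelled) of those of elongating libraries. The 9 macrophage markers took 0.00111 to 0.00161% in round libraries, and 0.0305 and 0.0304% (WT) and 0.00888 and 0.00890% (KO-labelled) in elongating libraries. The summed share of the 9 peritubular and vascular markers went the other way in elongating libraries, with 0.00618 and 0.00587% (WT) against 0.00803 and 0.00801% (KO-labelled). It was 0.00309 to 0.00405% in round libraries. The single markers of this list were mixed in elongating KO-labelled cells, where 5 rose and 2 fell, Pecam1 (-1.85) and Cdh5 (-0.84). With total counts 4 rose and 4 fell. Of all genes 27.3% rose and 27.7% fell there (8.89% and 62.8% with total counts). The 4 Leydig markers in the table took at most 0.000339% in any library, and Hsd3b1, Insl3 and Lhcgr, as well as the Sertoli marker Amh, had no row in it. No marker of these lists that is in the table was at 0 in every library, and the part of these cells in the results below was not tested. In such bulk samples, fewer cells of a type and less RNA per cell cannot be told apart.

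The whole family took a nearly constant share of the reads, between 1.37 and 1.49% in all 8 libraries, while its makeup changed with the stage. HSP90 genes gave 18.3 to 19.2% of the family's reads in the 4 round libraries, 2.06 and 2.0% in WT elongating libraries, and 1.27 and 1.26% in KO-labelled elongating libraries. Class B J-domain genes gave 23.8 to 24.5% in the 4 round and 43.9 to 44.8% in the 4 elongating libraries. Small heat shock genes gave 3.19 to 3.82% in round libraries, and 11.1 and 11.2% (WT) and 6.73 and 6.70% (KO-labelled) in elongating libraries. These shares are ratios within a library, so no size factor enters them. They show that the HSP90 share was lower in every elongating than in every round library. The elongating genotypes did not overlap in the share of any class. HSP70 genes, for example, gave 19.7 and 19.6% (WT) against 24.9 and 24.8% (KO-labelled) there. The shares are tied to each other by their common total, and each group has 2 libraries, so this does not single out a class.

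**Figure D1:**
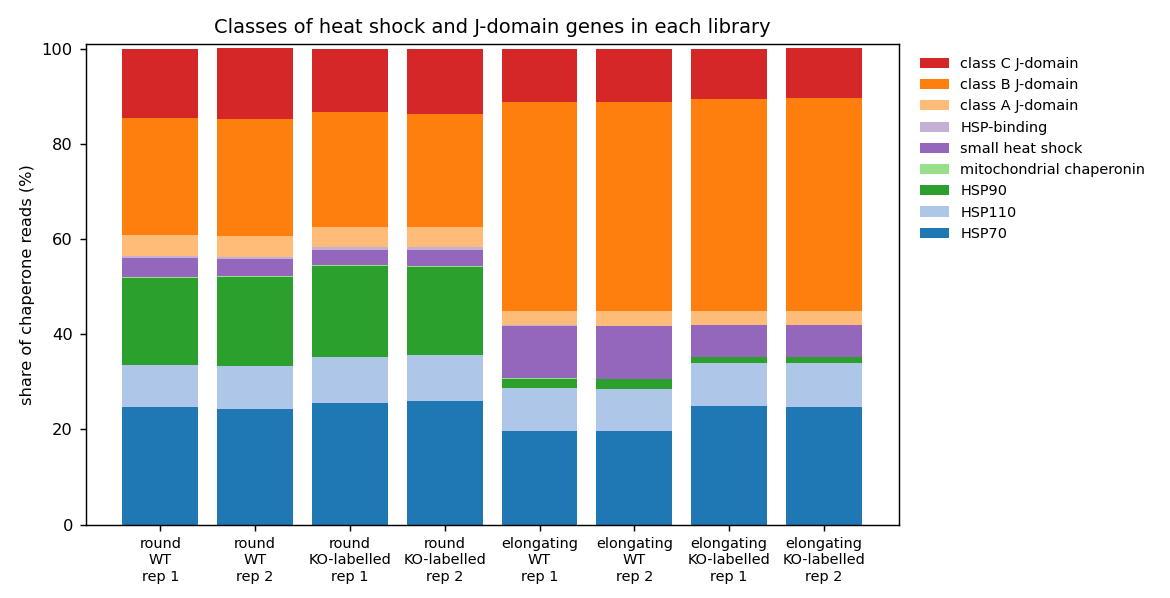
Share of the reads of all heat shock and J-domain genes (y axis, percent, from 0 to 100) that each class took in each of the 8 libraries (x axis, stacked bars). HSP90 shrinks from 18.3 to 19.2% in round to 1.26 to 2.06% in elongating libraries, while class B J-domain genes grow from 23.8 to 24.5% to 43.9 to 44.8%.

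Between the stages in WT cells, 37 of the 71 tested members rose from round to elongating spermatids and 31 fell with the deposited scaling. Of all tested genes 41.7% rose and 40.2% fell. With total counts 17 members rose and 51 fell, beside 19.6% and 68.8% of all genes. Stable calls were 17 rises and 31 falls, against 19.6% and 40.2% of all genes, and the member median was 0.12 with the deposited scaling and -1.34 with total counts. In KO-labelled cells 36 members rose and 28 fell (42.6% and 41.8% of all genes), with total counts 17 rose and 52 fell (16.7% and 72.8%), and 17 rises and 28 falls were stable (16.7% and 41.8%). The members' shares lie near those of all genes in both directions for the stable calls. Hspbap1, an HSP-binding member among the 5 largest falls in both genotypes, stood at 298 and 293, 337 and 314, 51.6 and 69.2, and 34.9 and 50.9.

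The HSP70 class changed its leading gene. Hspa2, the germ cell HSP70, stood at 19271 and 18975 (normalised reads) for WT and 25853 and 25041 in KO-labelled round libraries, and at 4498 and 4557 in WT and 3840 and 3608 in KO-labelled elongating libraries. Its levels in round cells lay above those in elongating cells in both genotypes, with a log2 difference between the WT stages of -2.08 ± 0.03 (SE; limma adjusted p = 4.9e-17). Hspa1l, a second HSP70 known from testis, moved the other way, from 7286 and 7458 (WT) and 7221 and 7009 (KO-labelled) in round libraries to 73167 and 72953 (WT) and 150885 and 147540 (KO-labelled) in elongating libraries. The WT difference between the stages was 3.31 ± 0.03 (adjusted p = 1.6e-20), and both stage differences were stable. Within the reads of the 11 HSP70 genes, Hspa2 took 50.1 and 49.2% in WT and 58.3 and 58.5% in KO-labelled round cells. It took 5.48 and 5.57% in WT and 2.41 and 2.31% in KO-labelled elongating cells. Hspa1l took 18.9 and 19.3%, 16.3 and 16.4%, 89.1 and 89.1%, and 94.6 and 94.6% in the same order. Hspa1l lies on chr17:34972703-34979285 (GRCm38, plus strand), and 71.9% of its exon length overlaps an antisense gene, Gm10501, in GENCODE M21. The kit does not mark strand, so reads of the 2 genes cannot be told apart. Hspa2 (chr12:76404176-76406938) had no such overlap.

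The HSP70 pair also separated the genotypes, in opposite directions at the 2 stages for Hspa2. In round cells Hspa2 was higher in both KO-labelled libraries than in both WT libraries, with a log2 fold change of 0.41 ± 0.03 (adjusted p = 5.3e-07). In elongating cells it was lower, with -0.28 ± 0.03 (adjusted p = 5.7e-06), and the difference between these effects was -0.69 ± 0.05 (adjusted p = 4.6e-08). Hspa1l did not pass the test in round cells (-0.05 ± 0.03, adjusted p = 0.17) and rose in elongating cells (1.03 ± 0.03, adjusted p = 7.8e-13), with a difference of 1.08 ± 0.04 (adjusted p = 2.7e-10). All of these calls of a change were stable. With total counts the Hspa2 values were 0.32 and -0.85. Those of Hspa1l were -0.14 in round cells, where it then fell (adjusted p = 0.0004), and 0.47 in elongating cells.

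The other constitutive HSP70 genes showed smaller values. Hspa8, the main cytosolic HSP70 of most cells, stood at 1451 and 1433 in WT and 1410 and 1388 in KO-labelled round libraries, and at 1218 and 1185 in WT and 1536 and 1570 in KO-labelled elongating libraries. Its rise in elongating KO-labelled cells (0.37 ± 0.05, adjusted p = 5.8e-06) turned into a fall of -0.19 with total counts. Hspa8 shares 45.3% of its 50-base words with the pseudogene Gm15459, so its level is uncertain. Hspa9, the HSP70 of mitochondria, fell in elongating KO-labelled cells (-0.18 ± 0.04, adjusted p = 0.0022) and between the WT stages (-1.85 ± 0.04), both stable. Hspa14, a ribosome-linked HSP70, stood at 65.7 and 51.9 (WT) against 25.2 and 45.2 (KO-labelled) in elongating libraries, and fell (-0.77 ± 0.24, adjusted p = 0.015). This call was lost without elongating WT replicate 1 (adjusted p = 0.12) and without elongating KO-labelled replicate 1 (log2 fold change -0.36, adjusted p = 0.16). Hspa12a, a distant HSP70 relative, stood at 110 and 140 in round WT and 76.9 and 64.8 in round KO-labelled libraries, and fell there (-0.81 ± 0.18, adjusted p = 0.0029; 0.060 without round WT replicate 2). Hspa12b rose in elongating KO-labelled cells (0.68 ± 0.15, adjusted p = 0.0013), and its value was 0.12 with total counts.

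Among HSP110 genes, Hspa4l, the member of this class known from germ cells, was higher in every KO-labelled than in every WT library of its stage. It stood at 9432 and 9806 in WT and 12002 and 11513 in KO-labelled round libraries, and at 33811 and 33898 in WT and 54569 and 54550 in KO-labelled elongating libraries. Its log2 fold changes were 0.29 ± 0.03 in round (adjusted p = 3.4e-06) and 0.69 ± 0.03 in elongating cells (adjusted p = 5.6e-11), and 1.82 ± 0.03 between the WT stages, all stable. The widely expressed Hspa4 did not pass the test in either knockout contrast (0.01 and 0.11; the elongating value was a fall of -0.46 with total counts) and fell between the WT stages (-0.62 ± 0.04), a stable call. Hsph1, an inducible HSP110, stood at 488 and 507, 476 and 456, 628 and 643, and 741 and 718 in round WT, round KO-labelled, elongating WT and elongating KO-labelled libraries. Its rise in elongating KO-labelled cells (0.20 ± 0.06, adjusted p = 0.014) was lost without elongating WT replicate 1 (adjusted p = 0.066) and was a fall of -0.36 with total counts. Its rise between the WT stages (0.35) was likewise a fall of -1.11 with total counts.

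All 3 HSP90 genes fell between the WT stages, Hsp90aa1 and Hsp90b1 strongly and Hsp90ab1 slightly (-0.20). Hsp90aa1, the inducible cytosolic HSP90, stood at 19802 and 20596 in WT and 24643 and 22217 in KO-labelled round libraries, and at 4919 and 4728 in WT and 4926 and 4666 in KO-labelled elongating libraries. It rose in round KO-labelled cells (0.21 ± 0.04, adjusted p = 0.0021; stable), gave -0.01 ± 0.04 in elongating cells (adjusted p = 0.88), and fell by 2.07 between the WT stages on the log2 scale. The elongating genotypes overlapped with the deposited scaling, while total counts gave -0.57. Hsp90ab1, the constitutive cytosolic HSP90, stood at 1908 and 1887, 2037 and 2081, 1700 and 1604, and 1422 and 1384 in the same order of groups. It fell in elongating KO-labelled cells (-0.24 ± 0.05, adjusted p = 0.00044), and the difference between the stages was -0.35 ± 0.06 (adjusted p = 0.00046), both stable. Hsp90aa1 shares 51.5% of its 50-base words with the pseudogene Gm12346, so its reads may be split between copies.

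**Figure D2:**
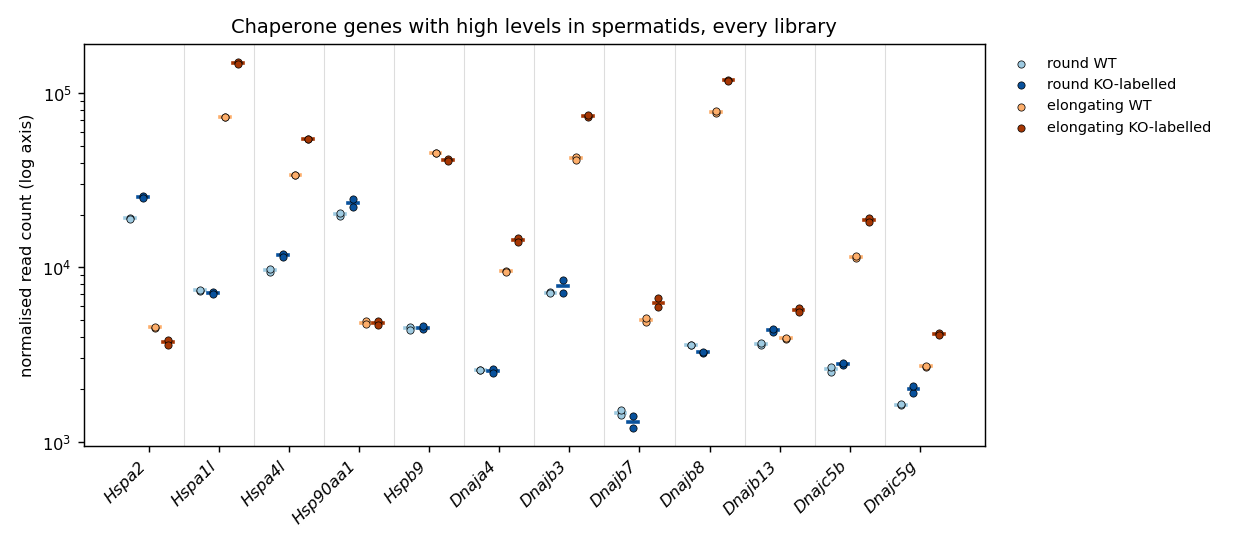
Normalised read counts (y axis, log scale) of 12 chaperone genes (x axis) in round and elongating spermatids, WT and KO-labelled. Each point is a library and each bar the mean of 2. Hspa2 and Hsp90aa1 are lower in elongating than in round cells and the other genes higher or level, with Hspa1l reaching 147540 and 150885 in elongating KO-labelled libraries.

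Of the 7 endoplasmic reticulum (ER) chaperones listed, 4 fell in KO-labelled cells at both stages, Hspa5, Hsp90b1, Dnajb11 and Dnajc3. At each stage alone, 12.6% of all tested genes fell in round and 27.7% in elongating KO-labelled cells (19.5% and 62.8% with total counts). The share of all genes that fell at both stages was not counted, so the 4 are only described and not read as a result about this list. The list holds the ER forms of HSP70 and HSP90 and the J-domain proteins that work with them. Hspa5, also called BiP, stood at 5858 and 5989 in WT and 4962 and 4773 in KO-labelled round libraries, and at 1180 and 1191 in WT and 807 and 890 in KO-labelled elongating libraries. Its log2 fold changes were -0.28 ± 0.05 in round (adjusted p = 0.00037) and -0.48 ± 0.05 in elongating cells (adjusted p = 6e-07), with a difference of -0.20 ± 0.07 (adjusted p = 0.031), all stable. Hsp90b1, the ER form of HSP90, stood at 6882 and 7173, 6615 and 6029, 1944 and 2026, and 1778 and 1864 in round WT, round KO-labelled, elongating WT and elongating KO-labelled libraries. The genotypes did not overlap at either stage, but the changes were small, -0.15 ± 0.05 (adjusted p = 0.021) and -0.12 ± 0.05 (adjusted p = 0.037). Leaving out round WT replicate 2 (-0.12, adjusted p = 0.19), round WT replicate 1 (0.050) or round KO-labelled replicate 2 (-0.09, 0.25) ended the round call. The elongating call was lost without elongating WT replicate 1 (0.054), elongating WT replicate 2 (-0.09, 0.22) or elongating KO-labelled replicate 1 (-0.09, 0.18).

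Dnajb11, a BiP partner, stood at 806 and 846 in WT and 691 and 678 in KO-labelled round libraries, and at 224 and 221 in WT and 163 and 134 in KO-labelled elongating libraries. It fell in round (-0.27 ± 0.09, adjusted p = 0.031) and in elongating KO-labelled cells (-0.59 ± 0.09, adjusted p = 5.3e-05), both stable over the scalings. The round call was lost without any 1 of the 4 round libraries, with adjusted p = 0.097 and 0.20 without round WT replicates 1 and 2 and 0.11 and 0.15 without KO-labelled replicates 1 and 2. Dnajc3, which also binds BiP and damps the ER stress kinases, stood at 529 and 573, 421 and 406, 169 and 169, and 116 and 143 in the same order of groups. It fell at both stages (-0.41 ± 0.10, adjusted p = 0.0059; -0.38 ± 0.10, adjusted p = 0.0051), stable over the scalings. The round call gave adjusted p = 0.086 without round WT replicate 2 and 0.058 without round KO-labelled replicate 2, and DESeq2 gave 0.082 for the elongating call. Dnajc10, an ER disulfide reductase with a J domain, stood at 898 and 858, 912 and 917, 280 and 245, and 180 and 211. It gave 0.06 in round cells (adjusted p = 0.66) and fell in elongating cells (-0.42 ± 0.09, adjusted p = 0.00075; stable).

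The remaining ER genes differed. Dnajb9, another BiP partner, stood at 1228 and 1209, 1436 and 1422, 2804 and 2790, and 3369 and 3299. It rose in round KO-labelled cells (0.23 ± 0.04, adjusted p = 0.00049; stable), and its elongating rise (0.25 ± 0.04, adjusted p = 8e-05) was a fall of -0.31 with total counts. Hspa13, an ER-linked HSP70, stood at 402 and 409, 385 and 340, 347 and 355, and 382 and 351, and did not pass the test in either knockout contrast (-0.16 and 0.06), but fell in both with total counts (-0.25 and -0.50). Between the WT stages Hspa5, Hsp90b1, Dnajb11, Dnajc3 and Dnajc10 fell by 2.32, 1.82, 1.89, 1.70 and 1.74 on the log2 scale, stable. Dnajb9 rose by 1.20 there with the deposited scaling and fell by 0.27 with total counts.

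**Figure D3:**
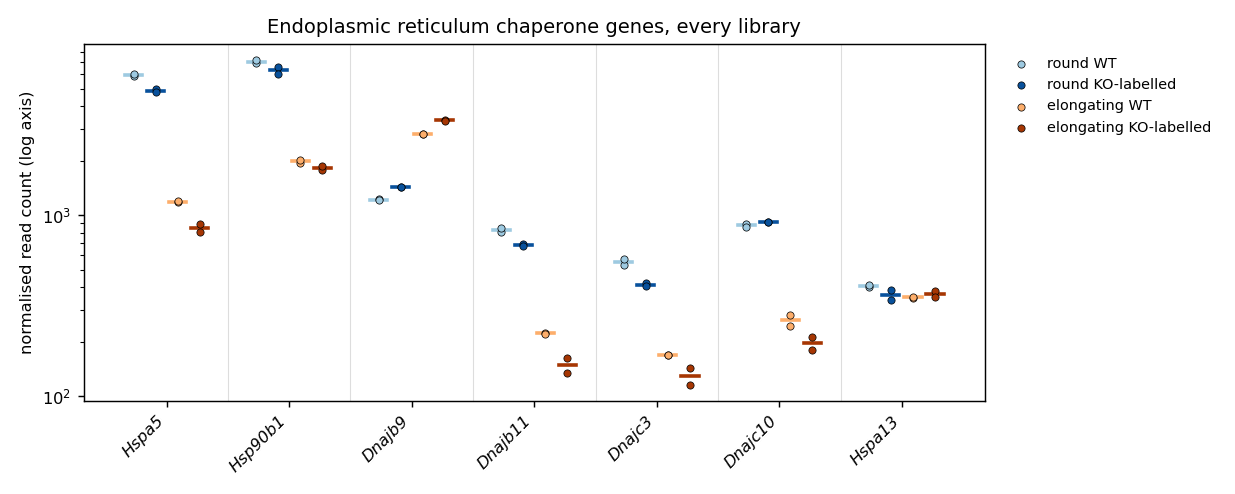
Normalised read counts (y axis, log scale) of the 7 endoplasmic reticulum chaperone genes (x axis), with a point for each library and a bar for the mean of 2. Hspa5 lies at 5858 and 5989 in round WT libraries and falls to 807 and 890 in elongating KO-labelled ones, and Dnajb9 is the gene that lies higher in elongating than in round libraries.

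The promoters of 3 of the ER genes that fell at both stages hold the letters of a known ER element, and these stretches are shown. RefSeq promoter windows of 300 bases (GRCm38.p6, 250 before the start and 50 after) were found for 58 of the 72 members, in 75 windows. The ER stress element was searched on both strands as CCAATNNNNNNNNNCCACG. It was found in 0.119% of 32851 promoters and in 3 of the 75 member windows, those of Hspa5, Hsp90b1 and Dnajc3. Sequences are written 5′ to 3′ on the gene's strand with the match in capitals:
Hspa5, chr2:34772020-34772048, plus strand: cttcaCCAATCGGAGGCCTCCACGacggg
Hsp90b1, chr10:86705633-86705661, minus strand: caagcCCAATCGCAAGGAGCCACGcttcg
Hsp90b1, chr10:86705528-86705556, minus strand: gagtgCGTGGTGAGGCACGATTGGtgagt
Dnajc3, chr14:118937822-118937850, plus strand: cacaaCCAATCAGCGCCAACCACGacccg
In GENCODE M21 the Hsp90b1 and Dnajc3 matches lie outside any gene, upstream of the start, and the Hspa5 match lies in an Hspa5 exon that starts before the RefSeq start. The windows of Dnajb9, Dnajb11 and Dnajc10 held no such letters. A match describes the sequence and is not evidence of a bound factor.

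Other genes of ER folding and of the unfolded protein response, were taken from a list that excludes the members, and most called ones fell. In round KO-labelled cells 1 of 21 rose and 10 fell (median -0.16, beside 0.03 over all genes, of which 12.6% fell; with total counts 1 rose and 11 fell). In elongating KO-labelled cells 2 rose and 15 fell (median -0.41, beside -0.07, with 27.7% of all genes falling; with total counts 1 rose and 19 fell, where 62.8% of all genes fell). The round spermatid and spermatocyte markers also fell on balance in elongating KO-labelled cells (medians -0.83 and -0.39). In round KO-labelled cells the spermatocyte marker median was -0.27. The part of these markers' cells in the ER values was not tested. Clgn, a testis chaperone of the calnexin family needed for sperm surface proteins, stood at 11709 and 11765 in WT and 10202 and 10080 in KO-labelled round libraries, and at 3154 and 3259 in WT and 1846 and 1742 in KO-labelled elongating libraries. It fell at both stages, by 0.21 and 0.84 on the log2 scale (adjusted p = 0.00046 and 6.9e-11). Pdia4, a protein disulfide isomerase, fell by 0.65 and 1.07 (adjusted p = 0.004 and 2.7e-05). The exceptions were Atf6, an ER stress sensor, which rose in round (0.80) and fell in elongating cells (-0.53), Ern1, another sensor, which rose in elongating cells (1.00; 0.44 with total counts), and Ddit3, whose elongating rise (0.39) was a fall of -0.18 with total counts.

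Small heat shock genes were led by Hspb9, a testis-specific member with a single exon (chr11:100713850-100714575). It stood at 4550 and 4378 in WT and 4414 and 4623 in KO-labelled round libraries, and at 45270 and 45493 in WT and 42038 and 41120 in KO-labelled elongating libraries. It rose between the WT stages (3.35 ± 0.03, adjusted p = 7.8e-20) and fell in elongating KO-labelled cells (-0.13 ± 0.03, adjusted p = 0.0036; -0.69 with total counts), both stable. Hspb11, which is IFT25 of the intraflagellar transport machinery, stood at 148 and 147, 123 and 112, 23.2 and 27.4, and 19.4 and 17.0, and fell between the WT stages (-2.50 ± 0.19, adjusted p = 8.4e-09). For Hspb11 neither knockout contrast passed with the deposited scaling (-0.33, adjusted p = 0.22; -0.45, adjusted p = 0.056). The elongating fall passed with total counts (-0.96, adjusted p = 0.00032), without the 50 genes (-0.91) and with TMM (-0.48, adjusted p = 0.042), and edgeR called the round fall (adjusted p = 0.0061). Hspb7 fell at both stages in KO-labelled cells (-0.41 ± 0.08, adjusted p = 0.0013; -0.22 ± 0.08, adjusted p = 0.033), stable. Hspb1, the widely expressed stress-inducible member, stood at 39.5 and 38.1, 31.8 and 34.9, 146 and 131, and 134 and 111, and was not called in either knockout contrast with the deposited scaling (-0.21 and -0.18). With total counts the elongating value was a called fall of -0.73 (adjusted p = 0.0013). Its rise between the WT stages (1.81 ± 0.17) did not pass with total counts (0.36, adjusted p = 0.057), and it shares 51.6% of its 50-base words with the pseudogene Hsp25-ps1. Hspb6 rose in elongating KO-labelled cells (0.22), a value of -0.34 with total counts, and Hspb2, at 1.21 to 10.7 normalised reads in all libraries, was too low to test.

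Both mitochondrial chaperonin genes were low. Hspd1, or HSP60, stood at 229 and 237, 201 and 176, 155 and 144, and 103 and 124 in round WT, round KO-labelled, elongating WT and elongating KO-labelled libraries. Hspe1, or HSP10, its lid, stood at 82.1 and 71.4, 62.3 and 77.2, 55.4 and 41.8, and 58.2 and 54.7. Hspd1 fell in elongating KO-labelled cells (-0.40 ± 0.12, adjusted p = 0.012; 0.074 without elongating WT replicate 1, and -0.26 with adjusted p = 0.085 without elongating KO-labelled replicate 1), and Hspe1 was not called in either knockout contrast (-0.14 and 0.22). Both fell between the WT stages (-0.64 and -0.66, stable), although the Hspe1 call was lost without round WT replicate 1 (adjusted p = 0.064) or elongating WT replicate 2 (0.069). The genes are read from opposite strands of 1 short region, which holds a heat shock element, shown first because both share it. The stretch after it is a separate match to the same element, in the Dnajb6 window on another chromosome:
Hspe1, chr1:55088053-55088082, plus strand: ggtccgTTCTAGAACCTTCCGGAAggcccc
Dnajb6, chr5:29735844-29735872, plus strand: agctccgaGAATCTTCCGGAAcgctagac
The element was searched on both strands as GAANNTTCNNGAA, and the Hspe1 stretch holds 2 overlapping matches, counted for Hspd1 as well. It was found in 0.603% of the 32851 promoters and in 6 of 75 member windows, of Dnajb6, Hspd1, Hspe1 and Hsph1. The windows of Dnajb6 overlap and hold the same match, as do those of Hsph1, where it lies after the start. The 6 windows thus count some sites more than once. In GENCODE M21 the Hspe1 stretch lies in an Hspd1 exon and the Dnajb6 stretch in a Dnajb6 exon and in the coding sequence of Gm5129. The 4 genes with a match did not move alike in elongating KO-labelled cells: the deposited values were 0.38 for Dnajb6, -0.40 for Hspd1, 0.22 for Hspe1 (not called) and 0.20 for Hsph1, and all 4 were below 0 with total counts. A cAMP response element, TGACGTCA, was in 1.79% of promoters and in 1 of the 75 member windows, that of Dnajc27.

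Class B J-domain genes held the strongest stage difference of the whole family. Dnajb8, a testis member that suppresses protein aggregation, stood at 3585 and 3599 in WT and 3232 and 3262 in KO-labelled round libraries, and at 76870 and 79105 in WT and 119798 and 117340 in KO-labelled elongating libraries. It rose between the WT stages by 4.44 ± 0.03 on the log2 scale (adjusted p = 1.8e-21; stable). It fell in round KO-labelled cells (-0.15 ± 0.03, adjusted p = 0.00087; stable), and its elongating rise (0.60 ± 0.03, adjusted p = 1e-10) did not pass with total counts (0.04, adjusted p = 0.15). An antisense gene, 1700031F10Rik, overlaps 37.2% of its exon length. Dnajb3, a single-exon testis member, stood at 7213 and 7122, 8418 and 7170, 43344 and 41327, and 73346 and 75260. Its elongating rise in KO-labelled cells was stable (0.81 ± 0.05, adjusted p = 4.8e-09; 0.25 with total counts), and in round cells it was not called (0.12). Dnajb7, also a single-exon gene, stood at 1411 and 1514, 1395 and 1201, 4865 and 5151, and 6637 and 5897, and its elongating rise (0.32) was a fall of -0.24 with total counts.

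Dnajb1, the main cytosolic partner of stress HSP70, stood at 3874 and 3844 in WT and 5156 and 5065 in KO-labelled round libraries, and at 4904 and 4678 in WT and 8735 and 8800 in KO-labelled elongating libraries. The KO-labelled libraries were above the WT libraries at both stages, with log2 fold changes of 0.41 ± 0.03 (adjusted p = 6e-07) and 0.87 ± 0.03 (adjusted p = 2.6e-11). Both were stable and came to 0.32 and 0.31 with total counts. Dnajb13, a component of the radial spokes of the sperm tail, stood at 3605 and 3663, 4243 and 4449, 3888 and 3955, and 5843 and 5573. Its round rise was stable (0.26 ± 0.04, adjusted p = 0.00011), and its elongating rise (0.54) came to -0.02 with total counts. Between the WT stages its small rise (0.11) was lost without round WT replicate 1 (adjusted p = 0.090) or elongating WT replicate 2 (0.088), and came to -1.36 with total counts. Of the 13 class B genes, 11 rose and 1 fell in elongating KO-labelled cells with the deposited scaling, but 3 rose and 5 fell with total counts. Of all genes 27.3% rose and 27.7% fell with the deposited scaling and 8.89% and 62.8% with total counts. The 3 stable rises were Dnajb1, Dnajb3 and Dnajb4 (0.72), and the stable fall was Dnajb11. In round cells 3 rose and 2 fell, all stable. Of all genes 19.4% rose and 12.6% fell there with the deposited scaling, and 13.8% and 12.6% were stable rises and falls.

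Per kilobase of exon, which allows levels to be compared between genes, the leading members changed with the stage. In round WT cells Hspa2 led with 7232 ± 79.1 normalised reads per kilobase (SD, n = 2), followed by Dnajb3 with 6820 ± 61.0, Hspb9 with 6149 ± 168, Hsp90aa1 with 5138 ± 143 and Hspa1l with 2982 ± 49.4. In elongating WT cells the order was Hspb9 with 62509 ± 217, Dnajb8 with 55271 ± 1120, Dnajb3 with 40281 ± 1357, Hspa1l with 29555 ± 61.0 and Dnajc5b with 9157 ± 194. In elongating KO-labelled cells it was Dnajb8 with 84032 ± 1232, Dnajb3 with 70698 ± 1288, Hspa1l with 60361 ± 957, Hspb9 with 57271 ± 895 and Dnajc5b with 14944 ± 566. Hspb9 thus moved from the first to the fourth place between the elongating genotypes. The libraries of neighbouring genes in these 3 orders did not overlap. Lengths are those of all annotated exons joined, which understates genes with rarely used exons.

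Among class A genes, Dnaja4 stood at 2578 and 2571, 2626 and 2469, 9596 and 9424, and 14679 and 13932 in round WT, round KO-labelled, elongating WT and elongating KO-labelled libraries. Its elongating rise (0.59 ± 0.04, adjusted p = 5.4e-09) did not pass with total counts (0.02, adjusted p = 0.55), and its rise between the WT stages (1.88) was stable. The antisense gene Wdr61 overlaps 44.1% of its exon length, and stood at 61.4 ± 13.4 (WT) against 35.4 ± 7.47 (KO-labelled) in elongating cells (SD, n = 2 each). Dnaja1, a stress-inducible cytosolic member, stood at 2155 and 2192, 2542 and 2240, 773 and 776, and 659 and 652, and fell in elongating KO-labelled cells (-0.24 ± 0.06, adjusted p = 0.0023) and between the WT stages (-1.49), both stable. Dnaja3, the mitochondrial member, rose in elongating KO-labelled cells (0.72 ± 0.06; 0.15 with total counts; stable). Dnaja2 also rose (0.26), a value of -0.31 with total counts.

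Class C held the largest fall in round cells, that of Dnajc6, and a rise of Dnajc25 near that of Hspa1b (1.57 and 1.55 with the deposited scaling, 1.49 and 1.58 with total counts). Dnajc25, a membrane protein of chromosome 4 (chr4:58995062-59025573), stood at 40.7 and 47.2 in WT and 137 and 127 in KO-labelled round libraries, and at 85.1 and 93.7 in WT and 400 and 360 in KO-labelled elongating libraries. It rose at both stages by nearly the same amount on the total-count scale, 1.49 and 1.51, and by 1.57 ± 0.13 (adjusted p = 6.8e-07) and 2.07 ± 0.13 (adjusted p = 4.9e-09) on the deposited scale. The next gene on the same strand, Gng10, was also higher in KO-labelled cells, at 87.3 ± 6.15 against 146 ± 3.16 in round and 32.1 ± 14.8 against 72.6 ± 1.25 in elongating cells (SD, n = 2). The annotation joins both genes in a readthrough model, Gm20503, with 7.6% of the 50-base words of Dnajc25. Dnajc17, a spliceosome-linked member, stood at 40.7 and 38.7, 54.1 and 57.5, 68.3 and 67.8, and 155 and 185. Its elongating rise was stable (1.30 ± 0.16, adjusted p = 8.4e-06), and its round rise (0.48, adjusted p = 0.038) missed the threshold with total counts (0.082). It also missed it without round WT replicates 1 and 2 (0.10 and 0.16) and without KO-labelled replicates 1 and 2 (0.098 and 0.18).

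Dnajc6, or auxilin, which uncoats clathrin vesicles, stood at 44.5 and 34.5 in WT and 10.8 and 17.5 in KO-labelled round libraries, and at 18 and 18.7 in WT and 7.76 and 13.2 in KO-labelled elongating libraries. It fell in round cells (-1.45 ± 0.35, adjusted p = 0.0051; stable over scalings), a call lost without round WT replicate 1 (adjusted p = 0.074) or round KO-labelled replicate 1 (0.074). Dnajc2, a ribosome-bound member also called zuotin-related factor, stood at 3210 and 3309, 2428 and 2258, 3496 and 3612, and 2923 and 2803. It was lower in both KO-labelled libraries at both stages (-0.48 ± 0.04, adjusted p = 1.3e-06; -0.31 ± 0.04, adjusted p = 2.6e-05), stable. Dnajc19, part of the motor of the mitochondrial import channel, stood at 262 and 232, 217 and 199, 180 and 124, and 62.1 and 73.5, and fell in elongating cells (-1.14 ± 0.16, adjusted p = 2.4e-05; stable). Dnajc8, a splicing-related member, stood at 404 and 391, 420 and 372, 273 and 255, and 167 and 160, and fell there too (-0.69 ± 0.09, adjusted p = 9.9e-06; stable). Dnajc22, at 15.5 and 23.1 against 9.70 and 7.54 in elongating cells, passed narrowly (-1.06 ± 0.43, adjusted p = 0.049). Its call was lost without any 1 of the elongating libraries: adjusted p = 0.054 and 0.25 without WT replicates 1 and 2, and 0.051 and 0.14 without KO-labelled replicates 1 and 2.

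Among class C genes of sperm, Dnajc5b, a cysteine string protein, stood at 2517 and 2675, 2746 and 2841, 11356 and 11701, and 19318 and 18311. It rose in elongating KO-labelled cells (0.71 ± 0.04, adjusted p = 9.2e-10; 0.14 with total counts; stable) and was not called in round cells (0.11, adjusted p = 0.053). Dnajc5g, a related cysteine string protein, stood at 1620 and 1634, 1905 and 2081, 2671 and 2731, and 4201 and 4112. Its round rise was stable (0.29 ± 0.05, adjusted p = 0.00018), and its elongating rise (0.62) did not pass with total counts (0.06, adjusted p = 0.24). Dnajc7, a cochaperone of both HSP70 and HSP90, stood at 1991 and 2100, 1978 and 1856, 7177 and 7300, and 13807 and 13700, with -0.09 in round (not called; a fall of -0.18 with total counts) and a stable rise of 0.93 ± 0.04 in elongating cells (adjusted p = 6.1e-11). Of all 28 class C genes, 5 rose and 5 fell in round KO-labelled cells, of which 2 rises and 5 falls were stable, and 11 rose and 7 fell in elongating KO-labelled cells, of which 4 rises and 7 falls were stable. With all 4 scalings, 13.8% and 12.6% of all genes rose and fell in round and 8.89% and 27.7% in elongating cells.

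The stress-inducible HSP70 genes Hspa1a and Hspa1b were scarce. Hspa1a stood at 14.0 and 15.1 in WT and 22.3 and 15.2 in KO-labelled round libraries, and at 184 and 136 in WT and 336 and 392 in KO-labelled elongating libraries. Hspa1b stood at 4.45 and 2.42, 11.4 and 11.8, 56.7 and 36.1, and 264 and 213. Hspa1b was higher in KO-labelled cells at both stages (1.55 ± 0.31, adjusted p = 0.0013; 2.36 ± 0.31, adjusted p = 1.1e-05), and Hspa1a in elongating cells (1.19 ± 0.21, adjusted p = 0.00025) but not by the test in round cells (0.32, adjusted p = 0.29), all stable. The values rest on few reads, 11 for Hspa1b over both round WT libraries and 39 over both round KO-labelled libraries. These genes share 58.8 and 62.3% of their 50-base words with each other and 8.0 and 6.8% with Hspa1l, which was far more abundant. There were 1.86 to 3.08 reads of Hspa1a and 0.325 to 1.75 of Hspa1b for each 1000 reads of Hspa1l over the 8 libraries. The part of misassigned Hspa1l reads in these values was not tested. A list of 10 genes known to be induced when tissue is dissociated was read beside them. In round KO-labelled cells 8 rose and 1 fell, with the same counts under total counts. Of all genes 19.4% rose and 12.6% fell there (14.0% and 19.5% with total counts). In elongating KO-labelled cells 7 rose and none fell, beside 27.3% and 27.7% of all genes. With total counts 4 rose and 1 fell there, beside 8.89% and 62.8%. Fos stood at 20.4 and 25.4 in round WT and 81.4 and 82.3 in round KO-labelled libraries. The part of cell handling in the Hspa1a, Hspa1b and Dnajb1 values was not tested.

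**Figure D4:**
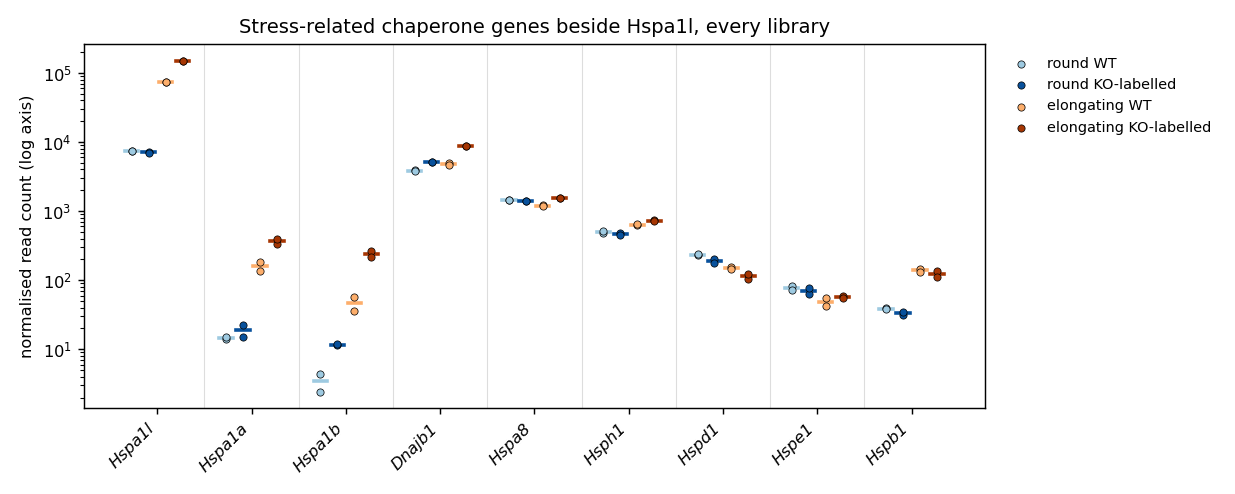
Normalised read counts (y axis, log scale) of stress-related chaperone genes beside Hspa1l (x axis), with a point for each library and a bar for the mean of 2. Hspa1b runs from 2.42 and 4.45 in round WT to 213 and 264 in elongating KO-labelled libraries, far below Hspa1l, while Hspa8 stays between 1185 and 1570 in all libraries.

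Counted over the whole family, 13 of 71 tested members rose and 11 fell in round KO-labelled against WT cells with the deposited scaling, where 19.4% and 12.6% of all tested genes did so. With total counts 10 rose and 24 fell (14.0% and 19.5% of all genes), and 10 rises and 11 falls were stable (13.8% and 12.6%). The member median was 0.00, beside 0.03 over all genes. The count of falls dropped to 5 without round WT replicate 2 and to 6 without round KO-labelled replicate 2. In elongating cells 33 members rose and 20 fell, where 27.3% and 27.7% of all genes did so. With total counts 12 rose and 46 fell (8.89% and 62.8%), and 12 rises and 20 falls were stable (8.89% and 27.7%). The member median was 0.11 beside -0.07 over all genes, and -0.46 beside -0.61 with total counts. The 12 stable rises in elongating cells were Hspa1a, Hspa1b, Hspa1l, Hspa4l, Dnaja3, Dnajb1, Dnajb3, Dnajb4, Dnajc5b, Dnajc7, Dnajc17 and Dnajc25. They are 16.9% of the tested members.

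For the difference of the genotype effect between the stages, 30 members were higher and 12 lower in elongating than in round cells with the deposited scaling (19.3% and 17.5% of all genes). With total counts there were 7 and 31 (5.47% and 45.1%), and 7 and 12 were stable (5.46% and 17.5%). The largest stable differences above 0 were those of Hspa1l (1.08) and Dnajc7 (1.02), and below 0 those of Dnajc19 (-0.89), Hspa2 (-0.69), Dnajc8 (-0.68), Hspbp1 (-0.65) and Dnajc5 (-0.61). Hspbp1, a nucleotide exchange factor of HSP70, stood at 421 and 398, 527 and 564, 324 and 290, and 239 and 281, so it rose in round and fell in elongating KO-labelled cells, both stable. The 2 knockout contrasts share no library, but each of them shares its libraries with the stage contrasts.

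**Figure D5:**
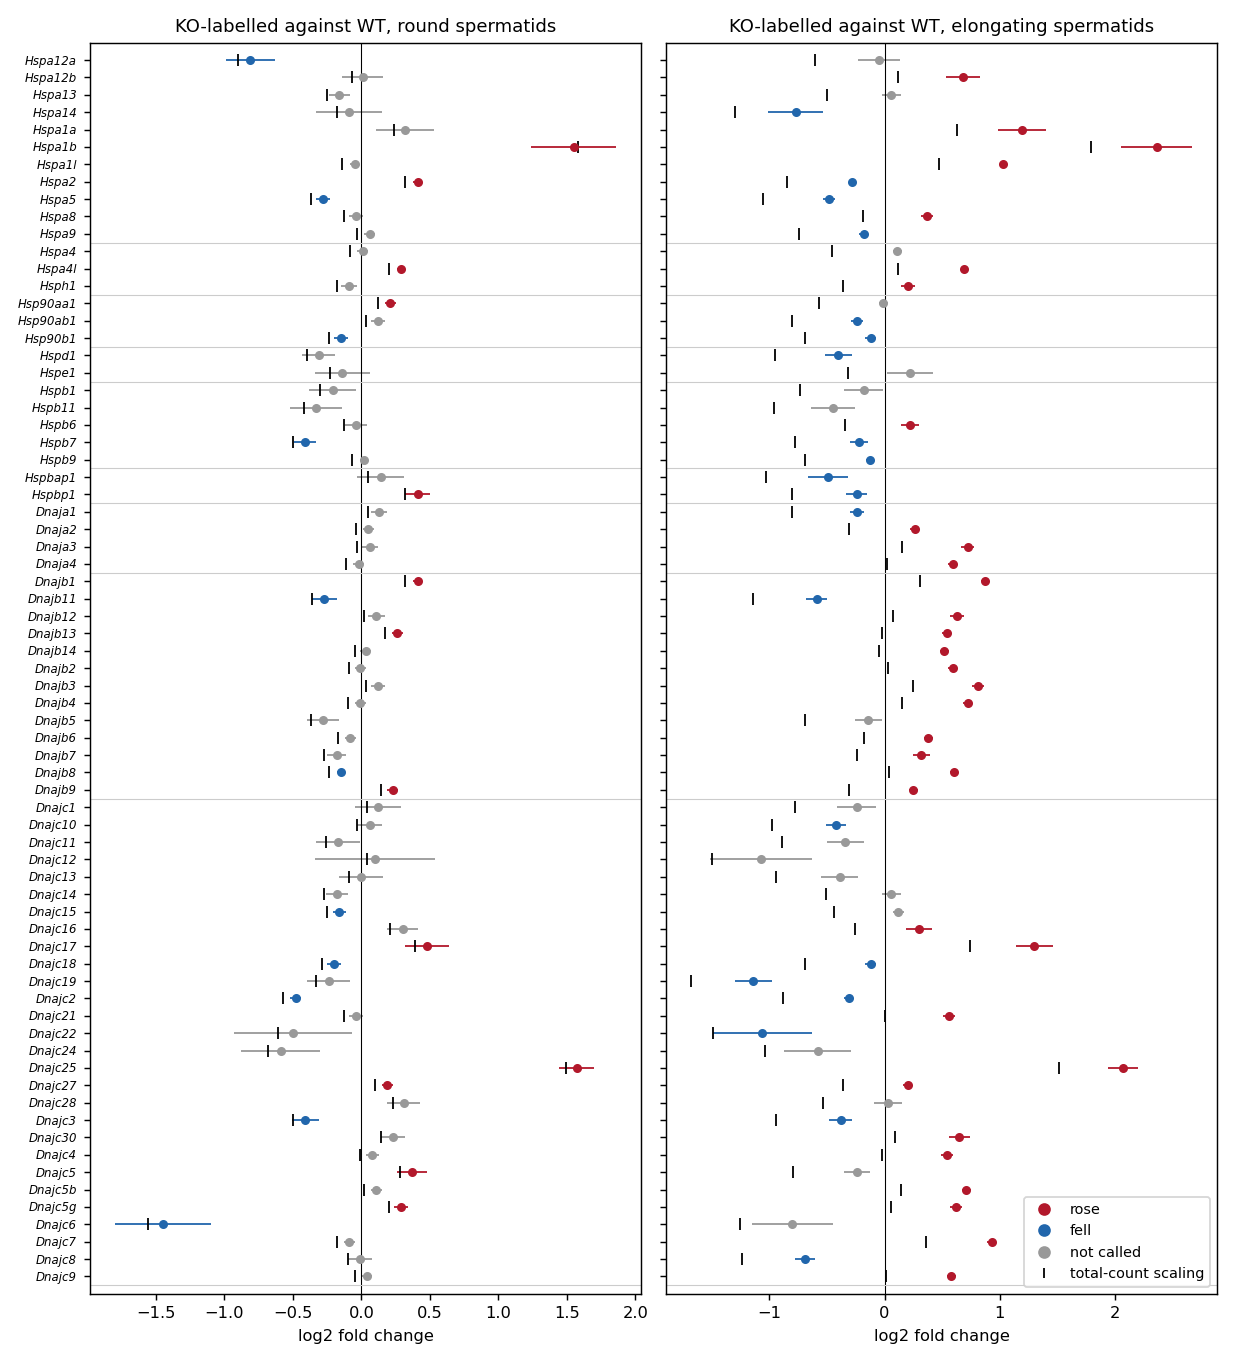
Log2 fold change of KO-labelled against WT (x axis) for the 71 tested members (y axis, grouped by class) in round (left) and elongating (right) spermatids. Points with bars are the deposited scaling ± SE, coloured by call, and black ticks the total-count scaling, which lies near the points in round cells and to their left in elongating cells.

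Regulators and partners of these chaperones, from lists that exclude the members, were examined in the same fit. The first list holds 4 heat shock factor genes (Hsf1, Hsf2, Hsf5 and Hsfy2) and Hsbp1 and Hsf2bp, whose proteins bind such factors. All 6 fell between the WT stages with the deposited and total-count scalings, where 40.2% and 68.8% of all genes fell. In elongating KO-labelled cells 2 of the 6 rose and 3 fell (with total counts 1 and 5). All counts of this paragraph in elongating KO-labelled cells stand beside 27.3% rising and 27.7% falling over all genes (8.89% and 62.8% with total counts), and those in round cells beside 19.4% and 12.6% (14.0% and 19.5%). Hsf2, a heat shock factor needed in spermatogenesis, stood at 193 and 169 (WT) against 89.2 and 90.5 (KO-labelled) in elongating libraries (log2 fold change -1.0, adjusted p = 8.7e-08), and Hsf1, the main stress-activated factor, was not called in either knockout contrast (0.09 and -0.09; the elongating value was a fall of -0.64 with total counts). Hsf5, a testis factor, rose at both stages (0.35 and 0.70; 0.26 and 0.14 with total counts). Of 34 cochaperones of HSP70 and HSP90, 9 rose and 3 fell in round cells (with total counts 5 and 6), and 14 rose and 12 fell in elongating cells (with total counts 5 and 24). Fkbp5, a brake on steroid receptor maturation, stood at 556 and 554 (WT) against 2413 and 2296 (KO-labelled) in elongating libraries (2.08, adjusted p = 2.8e-11) but gave 0.08 in round cells. Unc45a, a general myosin chaperone, fell at both stages (-1.64 and -2.17), while Unc45b, its muscle counterpart, rose at both (3.02 and 2.34). Of 15 genes of the cytosolic chaperonin and prefoldin, 6 rose and 1 fell in round (with total counts 3 and 2) and 5 rose and 6 fell in elongating cells (with total counts 0 and 13). Of the 4 J-domain genes whose symbols do not begin with Dnaj, 1 rose and none fell in round cells and 1 rose and 1 fell in elongating cells (with total counts 0 and 0, and 0 and 2).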

How the data were processed

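The submitters' processing notes list DESeq 1.16.0, HTSeq 0.6.0, TopHat2 2.0.10 and CASAVA 1.8.2 with builds mm10 and GRCm38. What each tool did, the strand setting and the gene models are not given in these sources. The table deposited by the authors holds a normalised signal per gene and library. Dividing each column by the value of 1 read gave whole numbers for 100% of values (tolerance 1e-06), so whole reads could be recovered. Values were tested as log2(value + 1) in limma 3.58.1 under R 4.3.3, with the moderated variance following the mean, over 15685 genes that reached 10 in 2 or more libraries, all 8 libraries in 1 model of 4 group means (4 residual degrees of freedom). Calls are Benjamini-Hochberg adjusted p under 0.05, two-sided, over all these genes, and fold changes on this scale understate low genes. Rose and fell mean called in the first group named. The fit was tested on simulated data. Alternatives were other scalings, a pseudocount of 8, no filter, edgeR 4.0.16 and DESeq2 1.42.0 on recovered reads, fits of 4 libraries, a replicate block, and each library left out.

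Positions and overlaps are from GENCODE M21 (GRCm38), found for 72 of 72 members. Shared sequence is the share of 50-base words of a gene's longest transcript found in transcripts of another gene. Genes were named by a testis, a stress and an ER set, the 5 largest rises and falls per comparison and the 5 highest WT levels per stage. Most are given in every library, but Hspa12a, Hspa14 and Dnajc22 at 1 stage only. Library values of Hspb7, Dnajb6 and Dnajc5 are not printed. The members and lists were chosen with earlier results of these data known. The labels do not say whether the 2 libraries of a group come from different mice. The p-values thus reflect the variation of these libraries alone, and that variation may be technical. Within groups, the chi-square per gene was 1.388 to 2.39, which cannot show whether the libraries of a group come from different mice. All libraries were counted separately.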

Additional observations from a re-analysis of the deposited data

Results flagged for a closer look

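The genotype effect differed between round and elongating spermatids, by the interaction term in limma (adjusted p under 0.05), for 30 tested members above 0 and 12 below 0 with the deposited scaling. Of all tested genes 19.3% and 17.5% did so, and 5.46% and 17.5% under all 4 scalings. The stable members were 9.86% and 16.9% of those tested, so those below 0 lie near the share of all genes. Given here are the 19 that passed in 1 direction under all 4 scalings and 3 others named by the rule for named genes. The log2 differences, elongating minus round, were above 0 for Hspa1l (1.08), Dnajc7 (1.02), Dnajb8 (0.75), Dnajb4 (0.72), Dnajb3 (0.70), Dnaja4 (0.60) and Dnajc5b (0.60). They were below 0 for Dnajc19 (-0.89), Hspa2 (-0.69), Dnajc8 (-0.68), Hspbp1 (-0.65), Dnajc5 (-0.61), Dnajc10 (-0.48), Dnaja1 (-0.37), Hsp90ab1 (-0.35), Hspa9 (-0.23), Hsp90aa1 (-0.22), Hspa5 (-0.20) and Hspb9 (-0.14). Hspa1a (0.87), Dnajc17 (0.82) and Hspa12a (0.76) did not pass with total counts, which gave 0.39, 0.34 and 0.30. Hspa2 and Hspbp1 rose in round and fell in elongating KO-labelled cells, with both stage effects called. Groups of 2 libraries are too small to single out 1 library as far from the rest.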

How the results depend on the processing

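Counts of members called moved with the scaling and, at both stages, with the tool. With total counts and with totals without the 50 most abundant genes, the falls were 24 and 24 in round KO-labelled against WT cells. In elongating cells the rises were 12 and 15 and the falls 46 and 45, and for the difference between the stages 7 and 10 and 31 and 29. For elongating against round the rises were 17 and 19 in WT and 17 and 18 in KO-labelled cells, with 51 falls (total counts) in WT and 52 and 45 in KO-labelled cells. In round cells edgeR called 20 rises and 19 falls and the fit of 4 libraries 18 falls, and in elongating cells DESeq2 called 11 falls. Leaving out 1 library gave 5 to 12 falls in round cells. The cause of the shifts with tool and libraries was not tested.

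Of 123 results on single genes, 17 reversed under some setting. With total counts and with totals without the 50 genes, values in elongating KO-labelled cells were -0.24 and -0.18 for Dnajb7, -0.31 and -0.25 for Dnajb9, -0.50 and -0.44 for Hspa13, -0.19 and -0.13 for Hspa8, -0.32 and -0.26 for Hspe1 and -0.36 and -0.30 for Hsph1, and -0.02 for Dnajb13 (total counts). In round cells they were -0.03 and -0.03 for Dnajc10 and -0.07 and -0.07 for Hspb9. Between the WT stages they were -1.15 and -0.71 for Dnajb1, -1.36 and -0.91 for Dnajb13 (-0.01 with TMM), -0.74 and -0.29 for Dnajc5g and -1.11 and -0.66 for Hsph1, and -0.27 for Dnajb9 (total counts). With a library left out, uncalled values changed sign in round cells for Dnaja4 (-0.06 to 0.03), Hspb9 (-0.02 to 0.05) and Hspe1 (-0.29 to 0.01), and in elongating cells for Hsp90aa1 (-0.05 to 0.03).

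Replicate numbers share only a number: the correlation of replicate 1 minus 2 between groups was -0.015 to 0.031. With a replicate block the counts were 14 and 11 in round and 33 and 20 in elongating cells, and no call on a named gene changed. Genes with few reads, such as Hspa1b and Dnajc22, are limited by depth.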
